A study of Mus musculus with 8 samples.

Results

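The complement and coagulation factors described here are 36 genes of the plasma protease cascades and of the plasma proteins secreted with them. They were chosen by symbol, as the features whose single gene symbol in the platform annotation is one of the 36. Of the 36 genes, 34 were measured, with 45 features among 45220 in the whole table, and they were 34 of 19087 genes tested. C3, the protein on which all routes of complement activation meet, and Cpb2, a carboxypeptidase that slows clot lysis, had no feature under that rule and were not analysed here. The measured genes fall into 6 of the lectin and classical pathway, 2 of the alternative pathway, 6 of the terminal pathway, 5 of contact and intrinsic coagulation, 5 of extrinsic and common coagulation, 6 anticoagulants and fibrinolysis genes, and 4 other plasma proteins.

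Liver total RNA of mice aged 9 months was hybridised on 8 two-colour Agilent arrays. An array set either an untreated mouse with a mutant Wrn protein or a vitamin C treated Wrn mutant against a wild type mouse, with 4 arrays for each mutant group. All mice, wild types included, carried the strain name C57Bl/6, were fed without limit and lived in a reversed cycle of 12 h light and 12 h dark. Wrn encodes a helicase of the RecQ family whose loss in humans causes Werner syndrome, a disease of early ageing. The sources used here name neither the kind of Wrn mutation nor the amount of vitamin C or how long it was given, and no wild type group is labelled as treated. Arrays are named below by their group and a number from 1 to 4. Both arrays of a number carry the same wild type number in the labels, and on numbers 3 and 4 the dyes were swapped. The question set by the design was how the mutant liver differs from wild type with and without vitamin C.

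Complement is a set of plasma proteins that tag and lyse microbes. Lectins or antibodies that bind a surface start proteases that cleave C4, C2 and C3, and the terminal components then assemble into a pore in the membrane. Coagulation is a cascade of serine proteases that ends in thrombin, which turns fibrinogen into a clot, and antithrombin, protein C and plasmin limit or dissolve that clot. Hepatocytes make most of these proteins under transcription factors such as HNF1, HNF4 and C/EBP, and several complement genes are also induced in the acute phase response.

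The deposited values are log ratios, read here as log2, with no intensity, so a value says how much an array's mutant RNA differs from its wild type RNA and not how abundant a transcript is. The liver could for this reason not be checked against the level of its markers. A value above 0 is read as higher in the mutant. That direction is likely but not settled, and it rests on the wild type being channel 1 on every array and on the title setting mutants against wild type. Whether the authors had already turned the swapped arrays is also not stated. The values were used as deposited. Turning the swapped arrays by their dyes changes the sign of the fitted difference in 11 of 34 members in untreated mutants, 19 in treated mutants, 20 in treated against untreated mutants and 12 in the average, against 47.2%, 53.3%, 52.3% and 49.0% of all genes. For the fitted differences given below, the turned value stands beside those whose sign it changes. A difference without a turned value beside it kept its sign but may have changed in size. Arrays of the same dye orientation correlated between -0.10 and 0.45 over all genes, and arrays of opposite orientation between -0.22 and 0.08. Wrn itself differed from wild type by 0.19 ± 0.10 (SE, log2) in untreated and 0.16 ± 0.10 in treated mutants, which does not check the labels because the kind of mutation is not given.

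Fits were made with limma over all 19087 genes, and a gene was called at a Benjamini-Hochberg adjusted p under 0.05. None of the 34 members was called in any of the 4 comparisons. In untreated mutants against wild type 0 of all genes were called (0%), in treated mutants 0 (0%), in treated against untreated mutants 0 (0%), and in both mutant groups averaged against wild type 2 (0.0105%). At an unadjusted p under 0.05, 2 of 34 members (5.88%) differed from wild type in untreated mutants against 7.79% of all genes. In treated mutants 2 did (5.88%), against 7.09% of all genes, and in treated against untreated mutants 1 did (2.94%), against 4.28%. In both groups averaged 4 did, which is 11.8% of the members against 9.84% of all genes. With the values as deposited these shares lie near the background in each comparison. With the swapped arrays turned they were 20.6% in untreated, 26.5% in treated, 0% in treated against untreated mutants and 35.3% in the average. The shares of all genes were then 10.1%, 9.15%, 3.00% and 14.9%. The arrays limit the differences more closely than the counts do. The 95% interval of the log2 difference lay within 1 of 0 for 31 of 34 members (91.2%) in untreated mutants. The same held for 31 (91.2%) in treated mutants and for 30 (88.2%) in treated against untreated mutants. The shares of all genes were higher, at 97.6%, 97.6% and 93.7%. Of the 6 terminal pathway members, 3, 3 and 2 had such an interval.

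With the values as deposited, the members as a list stayed close to 0 on average and were spread around it. Their median log2 difference from wild type was 0.06 in untreated mutants, with 20 members (58.8%) above 0 against 46.7% of all genes. In treated mutants it was 0.03, with 19 (55.9%) above 0 against 51.1%. The medians of all genes were -0.01 and 0.00. With the swapped arrays turned, the difference averaged over both groups was above 0 in 26 of 34 members, with a median of 0.14. For all genes it was then above 0 in 45.6%, with a median of -0.02. The array values that follow are as deposited. On single arrays the median over the members was 0.10, 0.09, -0.25 and 0.09 on untreated arrays 1 to 4 and 0.21, 0.20, -0.34 and -0.12 on treated arrays 1 to 4. Only 5 of 34 members were above 0 on untreated array 3 and 7 on treated array 3, against 26 and 28 on treated arrays 1 and 2. Both arrays of number 3, which share a wild type number, were thus the lowest in their groups.

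**Figure D1:**
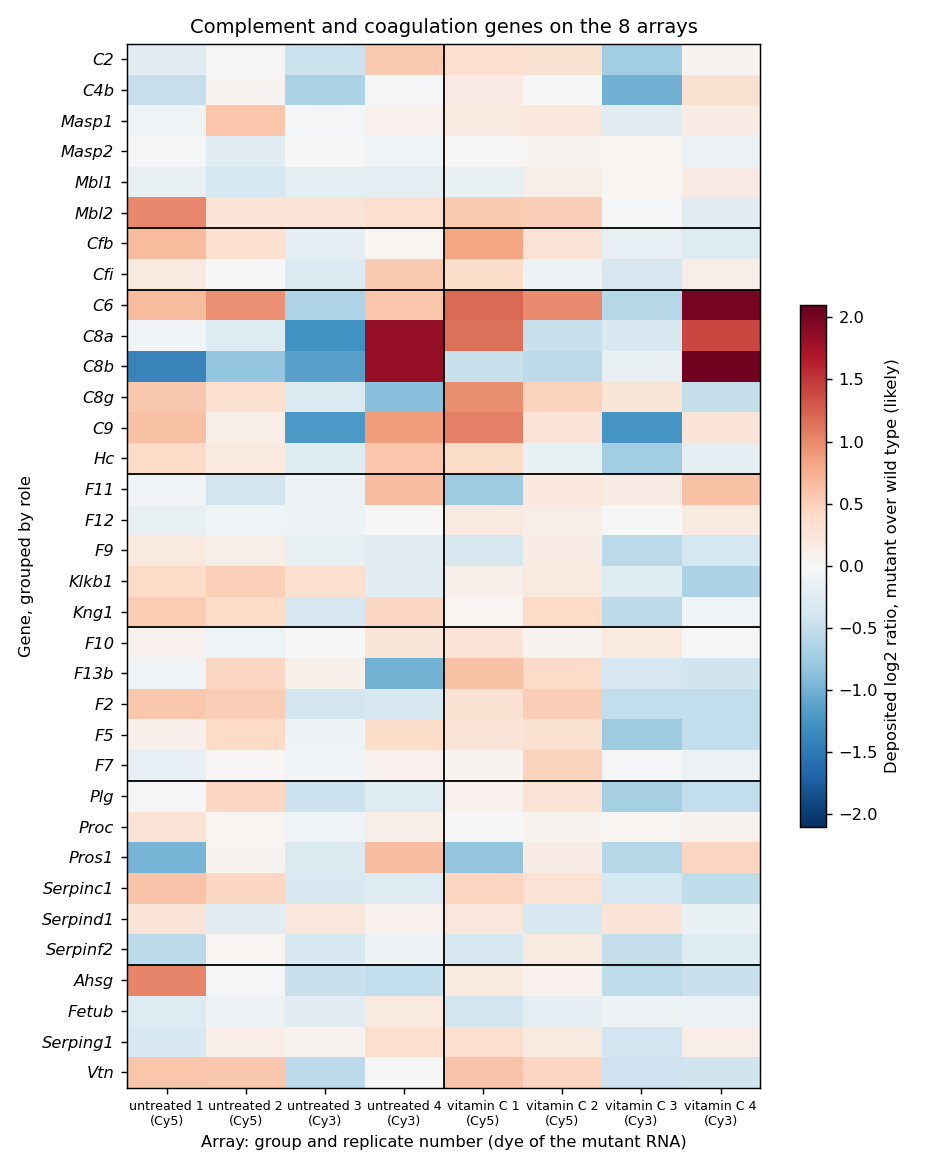
Log2 ratio of mutant over wild type for each of the 34 measured members (rows, ordered by role) on each of the 8 arrays (columns, 4 untreated and 4 vitamin C treated). Columns 3 of both groups are mostly below 0, with 5 and 7 members above 0.

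The recognition lectins gave the member with the smallest p in untreated mutants. Mbl2, a mannose-binding lectin that binds sugars on microbes, had log2 ratios of 1.01, 0.28, 0.29 and 0.36 on untreated arrays 1 to 4 and 0.55, 0.52, -0.04 and -0.23 on treated arrays 1 to 4. All 4 untreated arrays were above 0, array 1 stood apart from the other 3, and the groups overlapped. The fitted difference from wild type was 0.48 ± 0.13 (SE, n = 4 arrays, 1.40-fold) in untreated mutants, with a 95% interval from 0.20 to 0.77, an unadjusted p of 0.00395 and an adjusted p of 0.469 by limma. In treated mutants it was 0.20 ± 0.13, and over both groups 0.34 ± 0.09 with an adjusted p of 0.286. Turned by the dyes it was 0.16 in untreated mutants, 0.33 in treated mutants and 0.25 over both groups. As these are bulk livers, a change in the number of cells of a type and a change in RNA per cell cannot be told apart for this or any other member.

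Mbl1, the other mouse mannose-binding lectin, lay on the other side of 0 in untreated mutants. Its log2 ratios were -0.16, -0.36, -0.21 and -0.20 on the untreated arrays and -0.16, 0.14, 0.05 and 0.18 on the treated ones. Every untreated array was below 0 and the groups overlapped at -0.16. The difference from wild type was -0.23 ± 0.09 in untreated mutants (unadjusted p 0.0348, adjusted p 0.617 by limma). Turned by the dyes it was -0.03, with an unadjusted p of 0.825 by limma. Treated minus untreated was 0.28 ± 0.13 with an interval that reaches below 0, and it became -0.03 when the swapped arrays were turned. In untreated mutants the same sign on all 4 arrays was seen in 4 of 34 members, Mbl1, Mbl2, Masp2 and F12, against 12.9% of all genes.

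Of the proteases and substrates of these pathways, 0 of 4 reached an unadjusted p under 0.05 in any comparison. Masp2, the protease that mannose-binding lectins carry and that cleaves C4 and C2, differed by -0.09 in untreated mutants, with an interval from -0.29 to 0.12, and lay between -0.24 and 0.06 on all 8 arrays. Masp1, the protease that activates Masp2, lay between -0.22 and 0.59 on the 8 arrays, and its 4 features did not share a sign in 3 of the comparisons. C2, the protease component of the C3 convertase, lay between -0.74 and 0.55, with a fitted difference of -0.02 in untreated mutants and an interval from -0.46 to 0.42. C4b, the mouse C4 gene, was -0.48, 0.06, -0.66 and -0.03 on the untreated arrays and 0.17, 0.00, -1.0 and 0.31 on the treated ones, so that both number 3 arrays were the lowest. Its difference was -0.28 ± 0.20 in untreated mutants, and 0.07 when turned by the dyes. C4b has a near-identical copy, C4a, and the features may not tell the copies apart.

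Of the alternative pathway, which amplifies C3 cleavage, 2 of 3 members were measured. Cfb, factor B, the protease component of the alternative C3 convertase, had log2 ratios of 0.67, 0.34, -0.19 and 0.05 on the untreated arrays and 0.83, 0.31, -0.17 and -0.27 on the treated ones. In both groups the highest value came from number 1 and the groups overlapped throughout. The difference was 0.21 ± 0.12 in untreated mutants (0.14 without untreated array 4) and 0.17 ± 0.12 in treated mutants. Over both groups it was 0.19 ± 0.08, with an unadjusted p of 0.0421 and an adjusted p of 0.484 by limma. With the wild type number as a replicate block that unadjusted p was 0.0519. Cfi, factor I, which inactivates C3b and C4b, differed by 0.11 with an interval from -0.24 to 0.46 in untreated mutants (-0.02 when turned by the dyes) and by 0.02 with an interval from -0.33 to 0.37 in treated mutants.

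The terminal pathway builds the membrane attack complex. Hc (C5) is cleaved to start it, C6 and C8 add to the growing complex, and C9 forms the ring of the pore. All of these genes but Hc varied more than any other member, so the 150 bases before the transcription start are shown for C8a, C9 and C6, and for F9 and Vtn as members whose stretch holds several of the motifs. They are from RefSeq, build GRCm38.p6: C8a at chr4:104876399-104876548 on the minus strand, C9 at chr15:6445196-6445345, C6 at chr15:4727060-4727209, F9 at chrX:59999314-59999463 and Vtn at chr11:78498970-78499119, all 4 on the plus strand. Each reads 5′ to 3′ towards its gene. Capitals mark matches, on either strand, to 4 motifs: HNF1 as GTTAAT, C/EBP as TTGCNNAA, HNF4 as CAAAGT and STAT as TTCNNNGAA.
C8a: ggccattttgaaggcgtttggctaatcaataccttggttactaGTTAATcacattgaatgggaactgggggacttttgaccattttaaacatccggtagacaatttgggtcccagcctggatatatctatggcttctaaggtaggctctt
C9: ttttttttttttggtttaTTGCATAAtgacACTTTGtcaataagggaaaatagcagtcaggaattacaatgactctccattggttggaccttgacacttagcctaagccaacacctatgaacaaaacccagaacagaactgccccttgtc
C6: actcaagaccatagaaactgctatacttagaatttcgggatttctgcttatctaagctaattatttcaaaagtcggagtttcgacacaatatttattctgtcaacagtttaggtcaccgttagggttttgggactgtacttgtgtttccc
F9: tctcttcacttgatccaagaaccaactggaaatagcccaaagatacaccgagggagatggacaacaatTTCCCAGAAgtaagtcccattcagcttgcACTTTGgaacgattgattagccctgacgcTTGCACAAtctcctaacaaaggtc
Vtn: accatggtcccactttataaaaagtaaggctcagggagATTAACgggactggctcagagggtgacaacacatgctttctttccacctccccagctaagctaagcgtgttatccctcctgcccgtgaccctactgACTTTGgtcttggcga

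The C8a stretch holds 1 HNF1 motif ending 102 bases before the start. In C9 a C/EBP motif lies 125 bases and an HNF4 motif 115 bases before the start, and the C6 stretch holds none of the 4. F9 holds a STAT, an HNF4 and a C/EBP motif, at 74, 48 and 17 bases, and Vtn holds an HNF1 and an HNF4 motif, at 107 and 11 bases. In 250 bases before the start, 27 of the 36 genes had a promoter in the table, and no motif overlapped another kind of motif in them. HNF1 was found in 5 of the 27 (18.5%) against 6.43% of 32851 mouse promoters, C/EBP in 6 (22.2%) against 9.56%, HNF4 in 7 (25.9%) against 12.6%, and STAT in 4 (14.8%) against 7.02%. A match describes letters and not a bound site. C2, C4b, Cfb, Cfi, Masp1, Kng1, Plg, Serping1 and Proc were not matched to the promoter table.

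C6 had the highest mean of all members in treated mutants. Its log2 ratios were 0.67, 0.96, -0.66 and 0.59 on untreated arrays 1 to 4 and 1.20, 1.00, -0.60 and 2.00 on treated arrays 1 to 4. In each group 3 arrays were above 0, and the array of number 3 was below it. The difference from wild type was 0.39 ± 0.35 in untreated mutants and 0.90 ± 0.35 (1.86-fold) in treated mutants, with an interval from 0.11 to 1.69, an unadjusted p of 0.0296 and an adjusted p of 0.688 by limma. Over both groups it was 0.64 ± 0.25 with an adjusted p of 0.427, and 0.36 without treated array 4. The treated value rests on single arrays, since it was 0.34 without treated array 4 and 1.37 without treated array 3. Turned by the dyes it was 0.20.

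Markers of Kupffer cells and other macrophages moved with C6 across the arrays. The median over the 13 measured markers of 15 was 1.18, 0.80, -1.61 and 0.48 on the untreated arrays and 1.35, 1.10, -1.45 and 1.88 on the treated ones. On number 3 arrays only 1 of 13 markers was above 0, and on each of the other 6 arrays at least 12 were. Which of these markers are at background cannot be seen from ratios, and their part in the C6 values was not tested. Low number 3 arrays were not particular to macrophage markers. On untreated and treated array 3 the median was -0.95 and -0.43 for platelet, -1.42 and -0.95 for erythrocyte, and -0.35 and -0.32 for sinusoidal endothelial markers. For hepatocyte markers it was -0.42 and -0.32. Cholangiocyte markers were at 0.11 on untreated array 3 and neutrophil markers at 0.05 on treated array 3.

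The 3 subunits of C8 did not share a pattern. C8a had log2 ratios of -0.05, -0.27, -1.28 and 1.85 on the untreated arrays and 1.16, -0.47, -0.31 and 1.41 on the treated ones. C8b had -1.41, -0.82, -1.14 and 1.83 on the untreated arrays and -0.46, -0.55, -0.15 and 2.03 on the treated ones. Both alpha and beta subunit genes were thus far above 0 on both number 4 arrays and mostly below it elsewhere. C8g, the gamma subunit, a lipocalin encoded apart from the other subunits, had 0.57, 0.34, -0.31 and -0.88 on the untreated arrays and 0.97, 0.49, 0.26 and -0.49 on the treated ones. Its lowest value in each group fell on number 4, where C8a and C8b were highest.

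The SD of C8b over the 8 arrays was 1.30, and 0.461% of all genes varied as much. That of C8a was 1.09, which 0.859% of genes reached. The means of the C8b ratios by wild type number were -0.94, -0.68, -0.64 and 1.93, and 97.5% of its sum of squares lay between numbers. Numbers 3 and 4 have the same dye orientation and still differ, at -0.64 and 1.93. The wild type RNA that both arrays of a number share and the mutant mice cannot be told apart from the ratios. The fitted differences from wild type were -0.38 ± 0.44 for C8b and 0.06 ± 0.46 for C8a in untreated mutants, and 0.22 ± 0.44 and 0.44 ± 0.46 in treated mutants. Turned by the dyes, 3 of these 4 change sign, to -0.22 for C8a in untreated mutants and to -0.72 for C8b and -0.10 for C8a in treated mutants. The C8b interval in untreated mutants ran from -1.37 to 0.61. Without both number 4 arrays C8b averaged -0.73 ± 0.11 over both mutant groups, with an adjusted p of 0.0469 by limma. It was then the only member called, among 67 of 19087 genes called. That fit leaves out the arrays on which C8b was highest, so a mean below 0 with a small spread follows from the choice. Its p-value thus carries no weight. The fit also counts both arrays of a number as separate, though they share a wild type number.

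C9 and Hc showed the same dependence on single arrays. C9 had log2 ratios of 0.61, 0.14, -1.21 and 0.89 on the untreated arrays and 1.06, 0.28, -1.23 and 0.28 on the treated ones, so 6 arrays were above 0 and both number 3 arrays were more than 1 below it. Its difference from wild type was 0.11 ± 0.34 in untreated and 0.10 ± 0.34 in treated mutants. Hc had 0.41, 0.21, -0.25 and 0.57 on the untreated arrays and 0.38, -0.14, -0.74 and -0.21 on the treated ones. Its treated arrays were each lower than the untreated array of the same number, as they also were for Klkb1, F2 and Serpinc1. Treated minus untreated was -0.41 ± 0.23 for Hc (unadjusted p 0.107). It was -0.20 without untreated array 4, and 0.23 when the swapped arrays were turned. With the wild type number as a replicate block, treated against untreated mutants had 4 members at an unadjusted p under 0.05 in place of 1. That is 11.8% of the members, against 6.48% of all genes in that fit. These were C8b (0.60 ± 0.18, unadjusted p 0.0107), Klkb1, C8g (0.38 ± 0.14, unadjusted p 0.0242) and Hc (unadjusted p 0.0318), all by limma. The smallest adjusted p among them was 0.757 by limma. Turned by the dyes, without the block, treated minus untreated was 0.0053 for C8b and -0.10 for C8g.

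**Figure D2:**
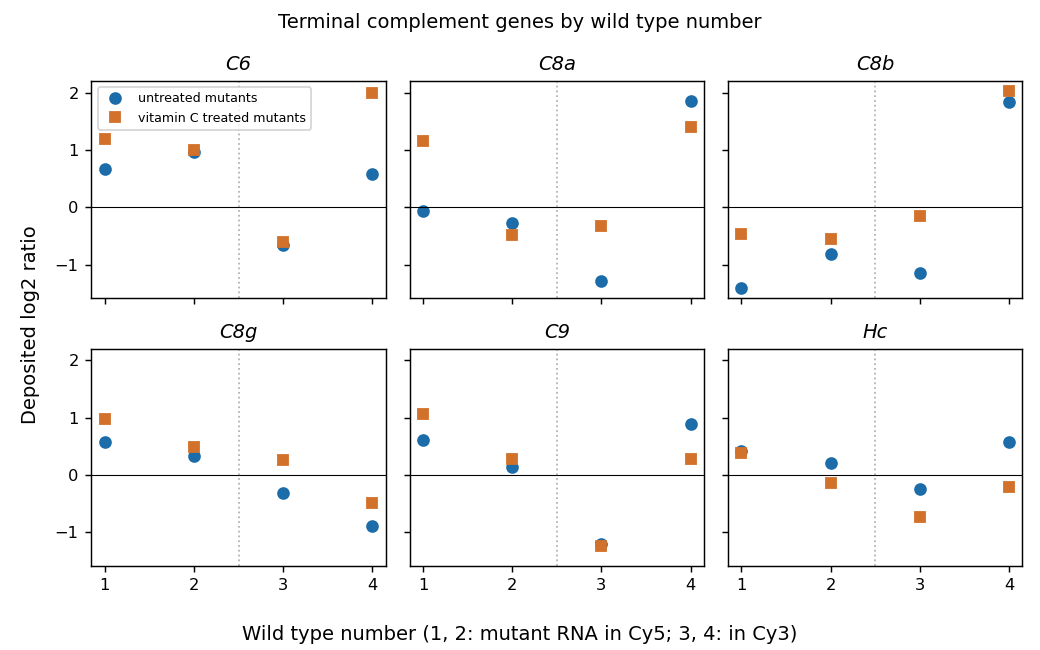
Log2 ratio of mutant over wild type for the 6 terminal pathway genes, plotted by wild type number, with an untreated and a treated array at each number. C8a and C8b are highest at number 4 (1.41 to 2.03) and C9 is lowest at number 3 (-1.21 and -1.23).

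The wide spread was shared by other members. The median SD over the 8 arrays was 0.41 for the 34 members and 0.27 for all genes, and 9 members were among the 10% of genes that varied most. The share of a member's spread that lay between wild type numbers had a median of 85.2%, against 63.9% for all genes. This describes the arrays, since the number is shared by the wild type, the dye orientation and the array pair. Masp2 and Proc varied least, each with an SD of 0.10.

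In the contact and intrinsic pathway, where surface contact starts a chain of proteases that leads to factor X, the plasma kallikrein gene gave the smallest p in treated against untreated mutants. Klkb1, prekallikrein, which activates F12 and releases bradykinin, had log2 ratios of 0.40, 0.50, 0.34 and -0.22 on the untreated arrays and 0.10, 0.20, -0.25 and -0.66 on the treated ones. Each treated array was lower than the untreated array of its number, and the groups overlapped. The same order within each number was seen for Hc, F2 and Serpinc1, and the opposite order for C6, C8b, C8g and F12. The share of all genes with such an order was not computed. Treated minus untreated was -0.41 ± 0.17 (interval -0.79 to -0.03, unadjusted p 0.0391, adjusted p 0.974 by limma), and it was 0.11 when the swapped arrays were turned. With the replicate block the unadjusted p was 0.0158. The difference from wild type was 0.26 ± 0.12 in untreated mutants, and 0.12 without untreated array 3.

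Klkb1 and F11 lie near Wrn on chromosome 8, with Klkb1 50 and F11 49 measured genes away. They fall inside the 100 measured genes on that side of Wrn whose count led an earlier report on these data to use the values as deposited, so their values are not independent of that choice. F11, factor XI, was -0.06, -0.39, -0.12 and 0.64 on the untreated arrays and -0.75, 0.22, 0.16 and 0.62 on the treated ones. Its highest value in each group was again on number 4.

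F12, factor XII, which starts the contact pathway, was the only member whose groups did not overlap. Its log2 ratios were -0.16, -0.09, -0.10 and -0.01 on the untreated arrays and 0.19, 0.14, -0.00 and 0.19 on the treated ones. The gap between the groups was small and 2.24% of all genes had groups that did not overlap. Treated minus untreated was 0.22 ± 0.13 with an interval from -0.06 to 0.50. Kng1, kininogen, the cofactor that carries prekallikrein, had 0.54, 0.40, -0.34 and 0.44 on the untreated arrays and 0.03, 0.42, -0.55 and -0.06 on the treated ones. Untreated array 3 stood apart from the other 3 untreated arrays. Its difference from wild type was 0.26 ± 0.14 in untreated mutants, with 0.09 without untreated array 4 and 0.40 without untreated array 3. Mice have a close paralog, Kng2, from which its features may not be told apart.

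F9, factor IX, the vitamin K dependent protease deficient in haemophilia B, had log2 ratios of 0.21, 0.13, -0.16 and -0.21 on the untreated arrays and -0.34, 0.15, -0.57 and -0.36 on the treated ones. In treated mutants 3 of 4 arrays were below 0 and treated array 2 was above it. The difference from wild type was -0.28 ± 0.10 in treated mutants (interval -0.51 to -0.05, unadjusted p 0.0237, adjusted p 0.685 by limma). It was -0.18 without treated array 1, and 0.18 when the swapped arrays were turned. Its features gave -0.43 and -0.13 in treated mutants.

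In the extrinsic and common pathway, from tissue factor to thrombin, no member reached an unadjusted p under 0.05 in any of the 4 comparisons. F7, factor VII, the partner of tissue factor, had log2 ratios of -0.17, 0.02, -0.06 and 0.09 on the untreated arrays and 0.05, 0.48, -0.04 and -0.13 on the treated ones. All values but that of treated array 2 lay within 0.17 of 0. F5, factor V, the cofactor of factor Xa, had 0.10, 0.41, -0.10 and 0.39 on the untreated arrays and 0.26, 0.32, -0.74 and -0.52 on the treated ones. Treated arrays 3 and 4 were the lowest, and treated minus untreated was -0.37 ± 0.20 (0.40 when turned by the dyes). It was -0.19 without untreated array 4. F10, factor X, differed by 0.06 with an interval from -0.16 to 0.29 in untreated mutants (-0.06 when turned by the dyes) and by 0.14 with an interval from -0.09 to 0.36 in treated mutants. F13b, the carrier subunit of the clot-stabilising transglutaminase, ranged from -1.0 to 0.62 on the 8 arrays.

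F2, prothrombin, the precursor of thrombin, split by the dyes and not by the groups. Its log2 ratios were 0.56, 0.52, -0.41 and -0.34 on the untreated arrays and 0.33, 0.51, -0.52 and -0.51 on the treated ones. Every array of numbers 1 and 2 was above 0 and every swapped array was below it. Its difference from wild type was 0.08 ± 0.09 in untreated mutants, and its dye term was 0.46 with an adjusted p of 0.0083 by limma. The dye term was called in 3 of 34 members (8.82%), F2, Serpinc1 and Vtn, and in 1.94% of all genes.

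Serpinc1 split in the same way, and Vtn did but for untreated array 4, which was at 0.01. Serpinc1, antithrombin, the main inhibitor of thrombin and factor Xa, had 0.59, 0.43, -0.32 and -0.27 on the untreated arrays and 0.45, 0.31, -0.37 and -0.53 on the treated ones, with a dye term of 0.41 (adjusted p 0.015). Vtn, vitronectin, which binds the terminal complement complex and the plasminogen activator inhibitor, had 0.57, 0.57, -0.56 and 0.01 on the untreated arrays and 0.60, 0.45, -0.43 and -0.42 on the treated ones, with a dye term of 0.45 (adjusted p 0.023). As deposited, these values follow the dye orientation. If the swapped arrays had instead not been turned by the authors, the same values would be a difference of both mutant groups from wild type, of 0.46 for F2, 0.41 for Serpinc1 and 0.45 for Vtn, with adjusted p of 0.0122, 0.0233 and 0.0261 by limma. These 3 (8.82% of the members) were the members called in both groups averaged under that reading, in which 1.62% of all genes were called. In untreated, treated, and treated against untreated mutants 0 members were then called, against 0.0472%, 0.0524% and 0% of all genes. At an unadjusted p under 0.05 that reading gave 7 members (20.6%) in untreated mutants against 10.1% of all genes. In treated mutants it gave 9 (26.5%) against 9.15%. It gave 0 (0%) in treated against untreated mutants against 3.00%, and 12 (35.3%) in both groups averaged against 14.9%. Of the 4 members at that p in the average as deposited, Mbl2 and Cfb are among these 12, and C6 and Serpinf2 are not.

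The dye term was above 0 in 26 of 34 members (76.5%), with a median of 0.14, against 45.6% of all genes and a median of -0.02. The hepatocyte markers moved with it. Their median over the 9 measured of 10 was 0.49, 0.22, -0.42 and -0.37 on the untreated arrays and 0.21, 0.12, -0.32 and -0.32 on the treated ones. It was above 0 on every unswapped and below 0 on every swapped array. Their dye term was above 0 in 7 of 9, with a median of 0.22. The Kupffer cell and macrophage markers had a dye term above 0 in 12 of 13, with a median of 0.60. The part of either in the members' values was not tested.

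**Figure D3:**
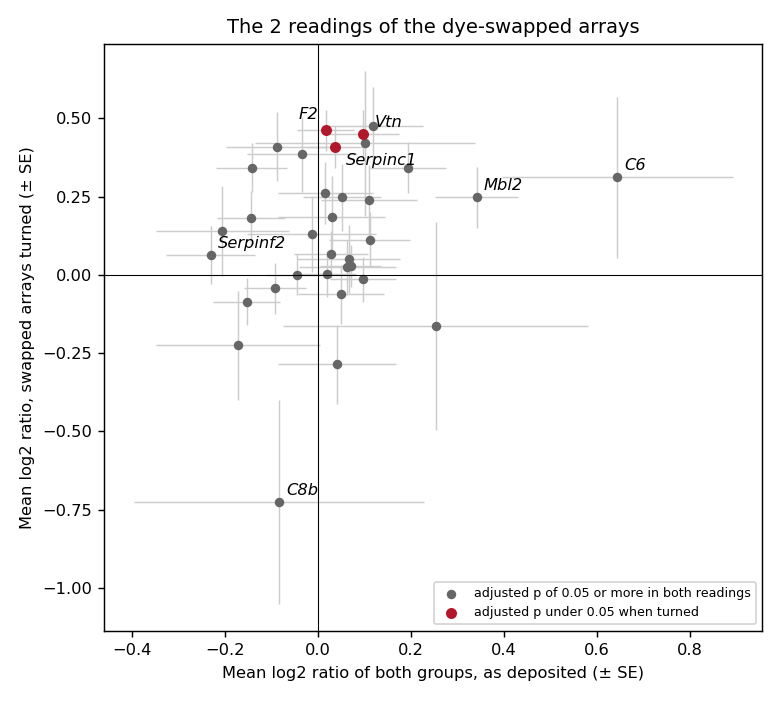
Difference of both mutant groups averaged from wild type (log2) for each member with the values as deposited (horizontal) and with the swapped arrays turned by the dyes (vertical). F2, Serpinc1 and Vtn lie at 0.46, 0.41 and 0.45 on the vertical axis.

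Of the other anticoagulants and fibrinolysis genes, Serpinf2 alone reached an unadjusted p under 0.05 with the values as deposited, in both groups averaged. Plg, plasminogen, the precursor of the clot-dissolving protease plasmin, had log2 ratios of -0.01, 0.44, -0.44 and -0.28 on the untreated arrays and 0.09, 0.29, -0.70 and -0.51 on the treated ones. Its swapped arrays were the lowest in both groups. The difference was -0.21 ± 0.11 in treated mutants (unadjusted p 0.0811) and 0.40 when turned by the dyes. Serpinf2, alpha-2-antiplasmin, the inhibitor of plasmin, had -0.55, 0.04, -0.32 and -0.10 on the untreated arrays and -0.34, 0.18, -0.50 and -0.25 on the treated ones. In both groups the array of number 2 was above 0 and the other 3 were below it. Over both groups it differed by -0.23 ± 0.10 (unadjusted p 0.0388, adjusted p 0.470 by limma), and by 0.06 when turned by the dyes. It was -0.15 without untreated array 1.

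Proc, protein C, which inactivates factors Va and VIIIa, differed by 0.09 with an interval from -0.12 to 0.30 in untreated mutants and by 0.05 with an interval from -0.16 to 0.26 in treated mutants (-0.01 when turned by the dyes). Serpind1, heparin cofactor II, which inhibits thrombin, differed by 0.09 with an interval from -0.20 to 0.39 in untreated mutants, and by -0.07 when turned by the dyes. Pros1, protein S, the cofactor of protein C, had -0.97, 0.06, -0.29 and 0.65 on the untreated arrays and -0.83, 0.16, -0.59 and 0.44 on the treated ones. The order of the arrays was the same in both groups, and 97.0% of its spread lay between numbers.

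Among the other plasma proteins, Ahsg and Fetub are fetuins, secreted by the liver, of which Ahsg (fetuin-A) keeps calcium phosphate in solution. Ahsg had log2 ratios of 1.03, -0.03, -0.47 and -0.52 on the untreated arrays and 0.20, 0.09, -0.53 and -0.47 on the treated ones. Both groups had their lowest values on the swapped arrays. Fetub was -0.27, -0.10, -0.25 and 0.21 on the untreated arrays and -0.40, -0.19, -0.11 and -0.12 on the treated ones. It was the only member with the same sign on all 4 treated arrays, which 13.2% of all genes had. Its difference was -0.20 ± 0.10 in treated mutants (unadjusted p 0.0772). Serping1, the C1 inhibitor, which restrains both C1 and the contact system, differed by 0.06 with an interval from -0.27 to 0.39 in untreated mutants (-0.15 when turned by the dyes) and by 0.07 with an interval from -0.26 to 0.40 in treated mutants. No member had the same sign on all 8 arrays, which 1.57% of all genes had.

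**Figure D4:**
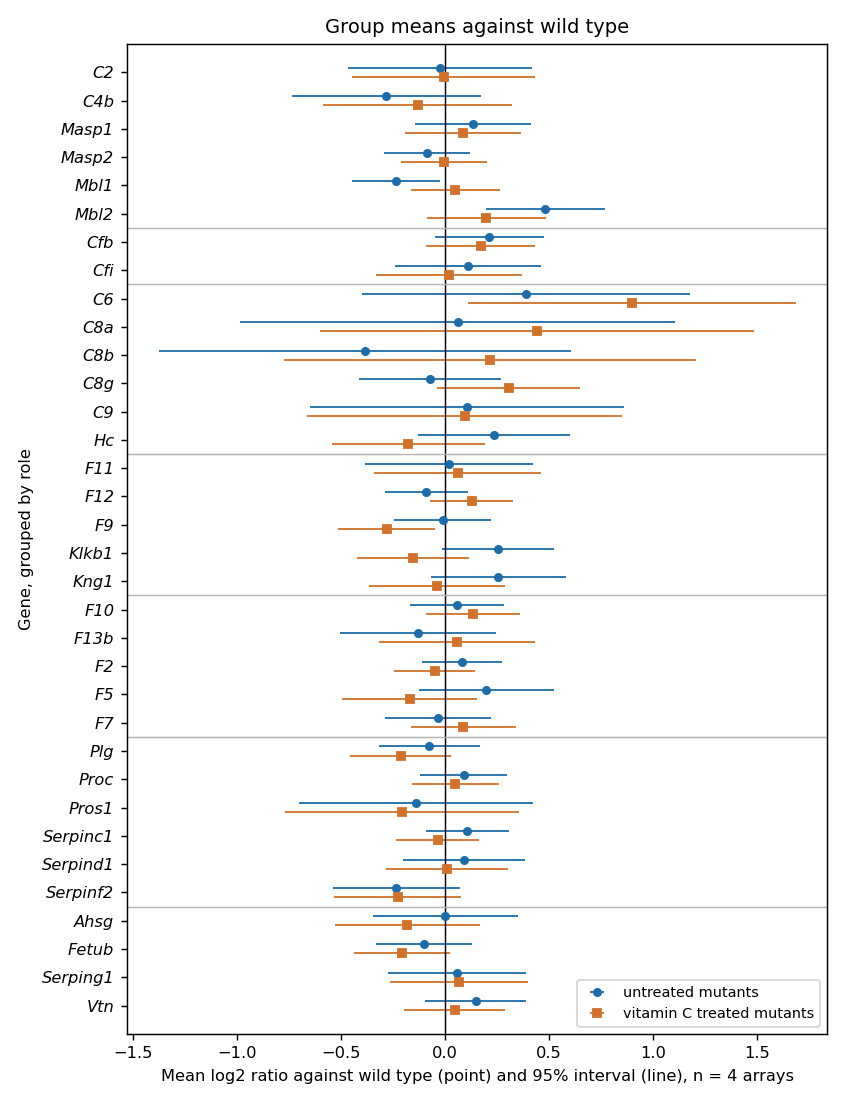
Fitted log2 difference from wild type for each measured member in untreated and in vitamin C treated mutants, with 95% intervals from limma (n = 4 arrays per group). The members lie between -0.38 (C8b) and 0.48 (Mbl2) in untreated and between -0.28 (F9) and 0.90 (C6) in treated mutants.

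The 6 vitamin K dependent members, F2, F7, F9, F10, Proc and Pros1, had a median difference of 0.03 in untreated and 0.00 in treated mutants, with 3 above 0 in each. Among 10 genes of the vitamin K cycle and of the secretion of clotting factors, 0 were called. Calu, calumenin, a calcium-binding protein of the secretory pathway that inhibits the gamma-carboxylation of these factors, differed by -0.42 ± 0.11 in treated mutants (unadjusted p 0.0034, adjusted p 0.610 by limma), and by 0.48 when turned by the dyes.

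Of 35 other complement genes, 28 were measured and 0 were called as deposited. Turned by the dyes, Clu (0.41) and Cfhr2 (0.46) were called in both groups averaged, with adjusted p of 0.0264 and 0.0295 by limma. In untreated mutants 17 of 28 lay above 0 with a median of 0.03, against 46.7% of all genes. In treated mutants 22 of 28 did with a median of 0.13, against 51.1% of all genes. At an unadjusted p under 0.05, 1 of 28 was found in untreated mutants, against 7.79% of all genes: C1s2, one of the mouse genes for the C1s protease, with 0.72 ± 0.21. In treated mutants 4 of 28 were higher and 0 lower, against 7.09% of all genes in either direction. These were C1s2 (0.53), C4a (0.49), Clu (0.24), which encodes clusterin, and Vsig4 (1.13 ± 0.41), the complement receptor of Kupffer cells. Vsig4 is also among the macrophage markers given above, as are C1qa, C1qb and C1qc of these 28 genes.

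Of 32 other coagulation and fibrinolysis genes, 28 were measured and 0 were called. In untreated mutants Fga, the fibrinogen alpha chain, differed by 0.33 ± 0.15 and F2r, a thrombin receptor, by 0.34 ± 0.13, both at an unadjusted p under 0.05. The other fibrinogen chains did not share the Fga value, since Fgb differed by -0.07 ± 0.19 (0.02 when turned by the dyes) and Fgg by -0.01 ± 0.12 in untreated mutants. In treated mutants 0 of 28 reached that p. In both groups averaged 3 did, F2r with 0.28, Plat, tissue plasminogen activator, with 0.16 (-0.09 when turned by the dyes), and Proz, protein Z, with -0.26.

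Of 17 transcription factors of hepatocytes 15 were measured, 12 of them below 0 in both groups averaged, with a median of -0.05 and 0 called. Onecut1 (HNF6) had the smallest p of the list, with -0.50 in untreated and -0.78 in treated mutants, and -0.64 ± 0.09 in both averaged (adjusted p 0.0736 by limma). Cebpb, a factor of the acute phase response, was -0.32 in untreated and 0.41 in treated mutants. Treated minus untreated was 0.73 ± 0.18 for Cebpb (unadjusted p 0.00246, adjusted p 0.974 by limma). Turned by the dyes, Cebpb was -0.35 in treated mutants and -0.28 in treated minus untreated. The 6 members with a C/EBP motif in their promoter were C3, which had no feature, C9, F9, F11, Klkb1 and Ahsg. Their treated minus untreated differences were -0.01 for C9, -0.27 for F9, 0.04 for F11, -0.41 for Klkb1 and -0.18 for Ahsg. Of these, 4 of 5 lay below 0, as did 19 of all 34 members and 8836 of all 19087 genes. Turned by the dyes the differences were 0.30 for C9, 0.0059 for F9, -0.08 for F11 and 0.11 for Klkb1, each with the other sign.

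Among 22 measured acute phase genes of 23, 0 were called, with a median of 0.11 in untreated and 0.07 in treated mutants. Hamp, hepcidin, differed by -0.55 in untreated and -0.60 in treated mutants, and Il6ra, the interleukin 6 receptor, by -0.37 in untreated mutants, each at an unadjusted p under 0.05. Turned by the dyes, Hamp was 0.14 and 0.39. The serum amyloid genes Saa1, Saa2 and Saa3, and Lcn2, named after their values were seen, stood apart on single arrays. Saa1 was -0.43, -0.92, -0.66 and 4.69 on the untreated arrays and 2.69, -0.52, -2.50 and 1.82 on the treated ones, and Saa2 and Saa3 ran with it. Saa4 did not, with 1.13, 0.52, 0.31 and -0.60 on the untreated arrays and 1.16, 0.19, -0.24 and -0.55 on the treated ones. Lcn2, lipocalin 2, was 3.34 and 3.52 on the untreated and treated arrays of number 4, where C8a and C8b were highest, and between -1.40 and 0.45 on the others. Of the 22 acute phase genes, 17 and 15 were above 0 on the untreated and treated arrays of number 4. Saa4, Crp (-0.16 and -0.57) and Hamp (-0.36 and -1.12) were below 0 on both. The median of the acute phase genes on single arrays was lowest on number 3, at -0.42 on the untreated and -0.75 on the treated array, where the members' median was lowest too. Their part in the members' values was not tested.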

How the data were processed

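Liver RNA of 8 mutant mice was compared with wild type RNA on 8 two-colour arrays, 4 per group. The authors deposited log ratios, read here as log2 values since the base is not stated. The submitters' processing notes list limma without saying for what. The background correction, the normalization and the orientation of the ratios were not given in the sources used. The deposited array medians lie near 0, and without intensities dim features could not be left out. The number of arrays limits the precision. Genes were named through GEO's platform annotation of the arrays, which gave a single symbol to 33653 features, several to 56 and none to 11511. Features of a gene were averaged. R 4.3.3 and limma 3.58.1 (lmFit, eBayes) fitted all 19087 genes on all 8 arrays, with a term per mutant group and a dye term, which left 5 residual degrees of freedom. P-values were adjusted over all genes by Benjamini-Hochberg. The script was tested on simulated data. The series design calls the replicates independent biological ones.

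Both arrays of a number share a labelled wild type number. Over all genes, after removing group means, same-numbered arrays correlated at 0.381, 0.324, 0.514 and 0.341 for numbers 1 to 4. The numbers were thus tried as a replicate block. Against wild type the block used a common correlation of 0.129 for all genes. For treated against untreated mutants it used a term per number and no dye term. The reading of the swapped arrays followed an earlier report on these data. Alternatives were the reading, the dye term, the feature summary, centring, scaling, robust moderation, the block and arrays left out. Values on every array are given for the 5 members of smallest p in each comparison and for a set of main factors. C8a, C8b, C4b, F11, F12, Pros1 and Vtn outside these were chosen after their values were seen. The members and lists were chosen with earlier results of these data known. Promoters are RefSeq's for GRCm38.p6. The files name no genome build.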

Additional observations from a re-analysis of the deposited data

Results flagged for a closer look

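Among 68 checks of a member in a group of 4 arrays, 5 found an array far from the other 3, and chance gives about 1 in 20. In treated mutants C8b was 2.03 on array 4 and between -0.55 and -0.15 on the others. Masp1 was -0.22 on treated array 3 and between 0.16 and 0.22 on the others. Masp2 was -0.13 on treated array 4 and between 0.03 and 0.06 on the others. In untreated mutants Mbl2 was 1.01 on array 1 and between 0.28 and 0.36 on the others. Kng1 was -0.34 on untreated array 3 and between 0.40 and 0.54 on the others. No cause was tested.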

How the results depend on the processing

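Across 20 member results named by smallest p, 396 of 404 alternative values kept their sign, 8 did not, and 0 had an adjusted p under 0.05 (smallest 0.078). Many of the 404 could not change sign. Robust moderation, the replicate block and leaving out the dye term keep the estimates, as does the only feature of a member taken alone. Turning the swapped arrays changed the sign of 8 of the 20. The 8 arose when the swapped arrays were turned by the dyes: F9 0.18 and Plg 0.40 in treated mutants, Klkb1 0.11, Mbl1 -0.033, F9 0.0059, F5 0.40 and Hc 0.23 in treated against untreated mutants, and Serpinf2 0.063 in both groups averaged. That turning also gave 9, 10, 0 and 309 genes called in untreated, treated, treated against untreated, and averaged, in place of 0, 0, 0 and 2, and 7, 9, 0 and 12 members at an unadjusted p under 0.05, in place of 2, 2, 1 and 4. Without the dye term 1 treated member and 0 in treated against untreated reached that p. Scaling gave 0 members in treated against untreated and 11 genes called in the average, and robust moderation 5. With the wild type number as a replicate block, 4 members reached that p in treated against untreated and 3 in the average. In the average 0 genes were then called. The block changed no call of a member. Against wild type its correlation of 0.129 was common to all genes and not fitted to the members. The members' spread lay more between numbers, with a median of 85.2% against 63.9% for all genes. Without both arrays of number 1, members at that p were 0 treated, 2 treated against untreated and 2 averaged, and 0 genes were called in the average. Genes called without number 2 were 1 in untreated, 6 in treated and 17 in averaged. Members at that p without number 3 were 7 (20.6%) untreated and 4 (11.8%) treated, against 7.64% and 7.32% of all genes. In that setting 1 treated and 1 averaged gene were called. Genes called without number 4 were 15 in untreated, 8 in treated and 67 in averaged. Members at that p were then 6, 4, 2 and 8 in the 4 comparisons. These are 17.6%, 11.8%, 5.88% and 23.5% of the members, against 9.25%, 8.57%, 4.65% and 12.1% of all genes. The cause was not tested. Leaving out 1 array gave 0 to 0, 0 to 3, 0 to 0 and 0 to 4 genes called, 1 to 3, 0 to 3, 1 to 2 and 1 to 5 members at that p, and member medians of -0.01 to 0.09, -0.02 to 0.07, -0.11 to 0.06 and -0.02 to 0.06. In the average the 2 genes called became 0 without untreated array 1, 2 or 3 or treated array 1 or 3, 1 without treated array 2 or 4, and 4 without untreated array 4. The members at that p in the average were 1 without treated array 1 and 2 without untreated array 1 or 3 or treated array 3. In treated mutants 0 members were left without treated array 1 and 1 without treated array 3, and 3 genes were called without treated array 2. Untreated members were 1 without untreated array 2. In treated against untreated, 2 members reached that p without untreated array 1 or 4 or treated array 1, 2 or 3. Without intensities, signal over background is not known, so dim features could not be set apart.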
